A study of Homo sapiens with 66 samples.

Results

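The genes described here are the 4 kinases that phosphorylate the translation initiation factor eIF2 and 4 genes that act directly beside them. They were taken by symbol from the gene count table, through the Ensembl identifiers of its rows, and all 8 of 8 were found among its 20167 genes. They are EIF2AK4 (the kinase GCN2), GCN1 (which GCN2 needs for its activation), IMPACT (which competes with GCN2 for GCN1), EIF2AK3 (PERK), EIF2AK2 (PKR), EIF2AK1 (HRI), EIF2S1 (the eIF2 alpha subunit, the substrate of all 4 kinases) and PPP1R15B (CReP, which brings protein phosphatase 1 to phosphorylated eIF2 alpha). The rule names them by symbol and uses no measured value. All 8 passed the filter on low counts in every comparison.

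Both cell lines come from human multiple myeloma, a cancer of plasma cells. AMO1 cells received the solvent DMSO, NCP26, halofuginone (HFG), halofuginol, NCP22 or carfilzomib (CFZ), and L363-CFZr cells, a carfilzomib-resistant subline of L363, received the same except CFZ, each for 6 h and 24 h with 3 libraries per group. NCP26, HFG, halofuginol and NCP22 were given at 1 µM and the CFZ dose is not given in the labels, so CFZ is set only beside DMSO. HFG and halofuginol are relatives of the plant alkaloid febrifugine and inhibit prolyl-tRNA synthetase, the enzyme that loads proline onto its tRNA. NCP26, which was derived from NCP22, inhibits the same enzyme at its ATP site, and CFZ inhibits the proteasome. NCP22 is directed at that enzyme too, and the study ascribes to halofuginol and NCP22 a lower or absent potency as inhibitors. L363-CFZr is a single resistant subline, and no untreated parental L363 was used here, so a difference between the lines cannot be ascribed to resistance. The 2 times also differ in handling, since only the 6 h material was frozen before RNA was prepared, so time and storage cannot be told apart.

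Phosphorylation of eIF2 alpha lowers general translation while favouring a few mRNAs such as that of the transcription factor ATF4, and this is known as the integrated stress response. Each kinase senses a different condition. GCN2 is activated by uncharged tRNA and stalled ribosomes, PERK by misfolded protein in the endoplasmic reticulum, PKR by double-stranded RNA, and HRI by lack of heme and by mitochondrial stress. Plasma cells secrete large amounts of immunoglobulin and therefore depend on the endoplasmic reticulum. RNA-seq reports the amount of each mRNA, not the activity of a kinase or the phosphorylation of eIF2 alpha, and in bulk RNA fewer cells of a type and less RNA per cell cannot be told apart.

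The AMO1 libraries held 1666325 to 5761682 counts (median 3009496, 36 libraries) and the L363-CFZr libraries 2487872 to 6596543 (median 3562784, 30 libraries). All 9 plasma cell markers exceeded 5 CPM, the count of a gene scaled to a common library size, in both lines, whereas the summed levels of the B cell, T cell, monocyte and erythroid markers did not exceed 4.04 CPM and that of the stromal markers 9.21 CPM in any library. A library stood apart in each of 2 groups. In L363-CFZr DMSO 24 h, replicate 2 correlated with the others at 0.920 and 0.922 and they with each other at 0.989. In AMO1 CFZ 24 h the pairs with replicate 2 correlated at 0.926 and 0.932, beside a median of 0.985 over the other groups. GCN1 was highest and EIF2S1 lowest of the 3 libraries in both of these replicates, so many results that rest on them are given with and without them. In L363-CFZr NCP26 6 h, replicate 2 correlated with the others at 0.980 and 0.973 and they with each other at 0.991. It held the lowest level of GCN1, EIF2AK3, EIF2AK4 and PPP1R15B in its group. Without it 36.7% of all genes were called with NCP26 against DMSO at 6 h, beside 18.8% with it. In AMO1 NCP26 6 h, replicate 1 correlated with the others at 0.968 and 0.971 and they with each other at 0.978. That replicate held the lowest level of GCN1 (129 CPM) and EIF2AK4 (37.9 CPM) in its group. The column names of the table carry sample numbers up to 22 that recur in 3 sets. All AMO1 6 h libraries and the AMO1 24 h DMSO libraries fall in one set and the other AMO1 24 h libraries, except CFZ replicate 1, in another. L363-CFZr DMSO and NCP26 at 6 h lie in a different set from HFG and halofuginol at 6 h. For these groups compound and set cannot be told apart, while all AMO1 6 h comparisons, all L363-CFZr 24 h comparisons and NCP26 against DMSO at 6 h in L363-CFZr lie within a set.

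The 8 genes are spread over 7 chromosomes, with coordinates taken from the GRCh38 annotation of GENCODE v44. EIF2AK4 (ENSG00000128829) lies at chr15:39934115-40035591 on the plus strand, GCN1 (ENSG00000089154) at chr12:120127202-120194715 on the minus strand and IMPACT (ENSG00000154059) at chr18:24426634-24453531 on the plus strand. EIF2AK3 (ENSG00000172071) lies at chr2:88556741-88691518 and EIF2AK2 (ENSG00000055332) at chr2:37099210-37157522, both on the minus strand. EIF2AK1 (ENSG00000086232) lies at chr7:6022247-6059175 and PPP1R15B (ENSG00000158615) at chr1:204396492-204411887, both on the minus strand, and EIF2S1 (ENSG00000134001) at chr14:67360328-67386516 on the plus strand. Counts are sums over the whole gene, so isoforms are not resolved.

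Promoter sequence was searched because PERK is tied to the unfolded protein response, PKR to interferon and the whole family to ATF4, each of which acts through known DNA elements. RefSeq start sites on GRCh38.p14 were used, with windows of 300 bases that run from 250 before the start to 50 after it, and both strands were read in 27305 promoters. For EIF2AK2, EIF2AK3 and PPP1R15B these starts lie inside the gene spans given above, and their windows overlap annotated exons. Windows of IMPACT and EIF2S1 also overlap exons before the start, so a match need not lie in untranscribed sequence. The core of the interferon response element, a pair of GAAA separated by 2 bases of any kind, was present in EIF2AK2 alone among the 8 genes and in 3.65% of all promoters. The C/EBP-ATF element TGATGNAAN was present in PPP1R15B alone and in 3.67% of all promoters. CCAAT was found in EIF2AK2, EIF2AK3 and PPP1R15B and in 35.7% of all promoters. None of the 8 windows held the cyclic AMP element TGACGTCA (1.98% of promoters), the endoplasmic reticulum stress element ERSE (0.0806%) or its second form ERSE-II (0.0549%), and CCAAT overlapped no other match in these windows. Sites in these promoters follow on the strand of each gene, with the matched letters in capitals. A match is a description of the letters and not of binding.
EIF2AK2, chr2:37156967-37156996, minus strand, match beginning 6 bases before the start: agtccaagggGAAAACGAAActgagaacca
PPP1R15B, chr1:204412026-204412054, minus strand, match beginning 227 bases before the start: ccgccccggcTGATGCAACctcacgctgc
EIF2AK3, chr2:88627682-88627706, minus strand, 232 bases before the start: gatgagcgcaCCAATcaggtaaaaa
EIF2AK3, chr2:88627589-88627613, minus strand, the reverse complement of CCAAT, 139 bases before the start: ttacgatttgATTGGtaggtgcgat
EIF2AK3, chr2:88627503-88627527, minus strand, 53 bases before the start: gcggccgcagCCAATgagagagcaa

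In DMSO the 4 kinases were not equally abundant. Per kilobase of a single representative transcript, AMO1 cells at 6 h held 40.8 ± 2.35 CPM per kb of EIF2AK1 (SD, n = 3), 37.5 ± 2.41 of EIF2AK3, 9.33 ± 1.20 of EIF2AK2 and 8.56 ± 0.407 of EIF2AK4. This scale sets genes side by side only as far as that transcript is the one expressed. It has 9975 bases for EIF2AK2 and 4411 to 5538 for the other kinases. The libraries of EIF2AK1 and EIF2AK3 overlapped, as did those of EIF2AK2 and EIF2AK4, so the order within these pairs is not resolved. EIF2S1 stood at 34.3 ± 2.38, GCN1 at 30.6 ± 1.41, PPP1R15B at 21.5 ± 2.59 and IMPACT, the lowest of the 8 genes, at 3.37 ± 0.482. L363-CFZr cells at 6 h held 45.6 ± 1.09 of EIF2AK1, 16.7 ± 1.12 of EIF2AK3, 13.2 ± 0.578 of EIF2AK4 and 8.65 ± 0.746 of EIF2AK2, with IMPACT again lowest at 6.35 ± 0.458. Undivided by length, EIF2AK2 exceeded EIF2AK4 at 6 h, with means of 93.1 and 47.4 CPM in AMO1 and 86.3 and 73.1 in L363-CFZr. The place of EIF2AK2 therefore rests on the length taken for it. At 24 h EIF2AK1 stood at 53.0 ± 1.33 CPM per kb in AMO1 and 57.4 ± 2.18 in L363-CFZr, EIF2AK3 at 42.4 ± 1.38 and 12.8 ± 1.13, EIF2AK4 at 7.89 ± 0.642 and 13.8 ± 1.16, and EIF2AK2 at 5.84 ± 0.503 and 6.58 ± 1.86. EIF2AK1 had the highest mean of the kinase mRNAs in DMSO in both lines at both times, and the rank of EIF2AK3 differed between the lines. The level of EIF2AK1 may include reads of its neighbour AIMP2, since 13.05% of the 31-base words of its transcripts occur in other genes, AIMP2 among them.

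**Figure D1:**
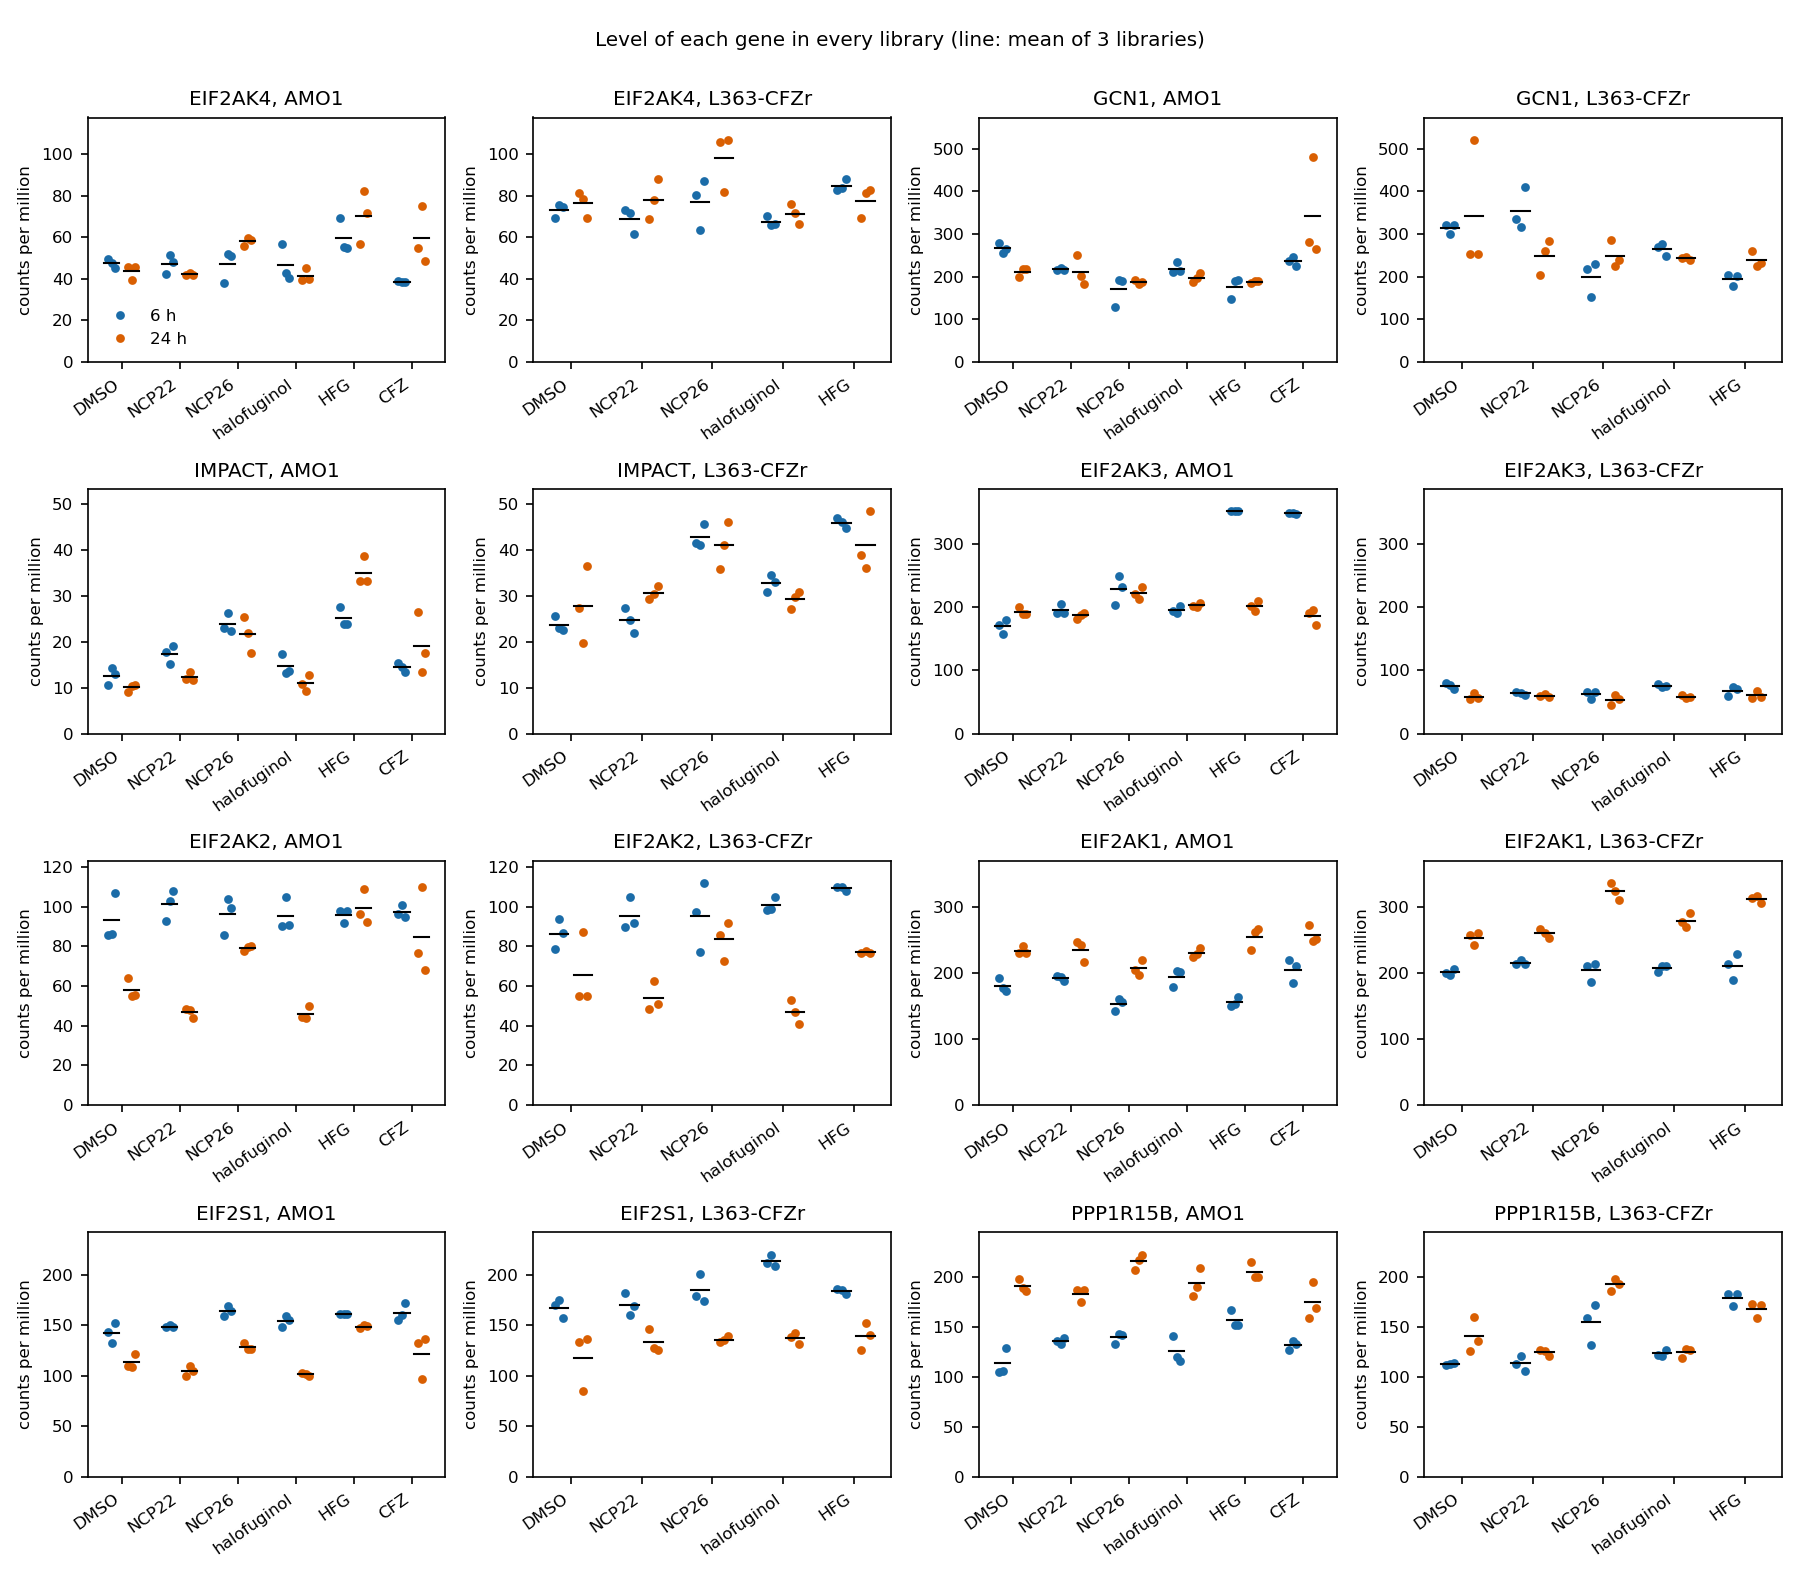
Level of each of the 8 genes in every library, in CPM (vertical axis, from 0), by compound (horizontal axis), with 6 h in blue, 24 h in orange and a bar at the mean of 3 libraries. EIF2AK3 in AMO1 reaches 351 CPM with HFG at 6 h and is at 75.5 CPM in L363-CFZr DMSO at 6 h, and IMPACT is higher with NCP26 and HFG than with DMSO at both times in AMO1.

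Counts of the 8 genes that passed the test were read against the share of all genes tested that passed it. In AMO1 at 6 h, 4 genes passed with NCP26 (37.3% of all genes tested), 6 with HFG (54.3%), 1 with halofuginol (3.62%), 1 with NCP22 (13.5%) and 1 with CFZ (26.9%). In AMO1 at 24 h, 8 passed with NCP26 (60.7%), 5 with HFG (59.0%) and 2 with CFZ (27%). Without CFZ replicate 2, 7 passed with CFZ (48.2%), with PPP1R15B lower (-0.18, 0.0296). None passed in AMO1 at 24 h with halofuginol (0.183%) or NCP22 (0%) in edgeR, with 2 and 1 at an unadjusted p under 0.05. DESeq2 called 0 with NCP22 and gave no adjusted p for these genes with halofuginol. In L363-CFZr at 6 h, 3 passed with NCP26 (18.8%), 6 with HFG (54.5%) and 3 with halofuginol (25.8%), while none passed with NCP22 (0%), where 2 had an unadjusted p under 0.05 and DESeq2 called 0. In L363-CFZr at 24 h none of the 8 passed in edgeR or DESeq2 with NCP26 (7.09%), HFG (1.17%), halofuginol (0%) or NCP22 (0%), and 3, 2, 0 and 0 had an unadjusted p under 0.05. Without DMSO replicate 2, 4 genes passed with NCP26 (28.6% of all genes) and 3 with HFG (19.5%) at 24 h in L363-CFZr, and still none with halofuginol or NCP22. With every library kept but all groups of the line in one edgeR fit, 4 passed with NCP26 (26.3%) and 2 with HFG (17.3%). None passed in that fit with halofuginol or NCP22. The 8 genes were not tested as a group, and their directions and sizes are described next. All compounds of a line and time share the same DMSO libraries.

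**Figure D2:**
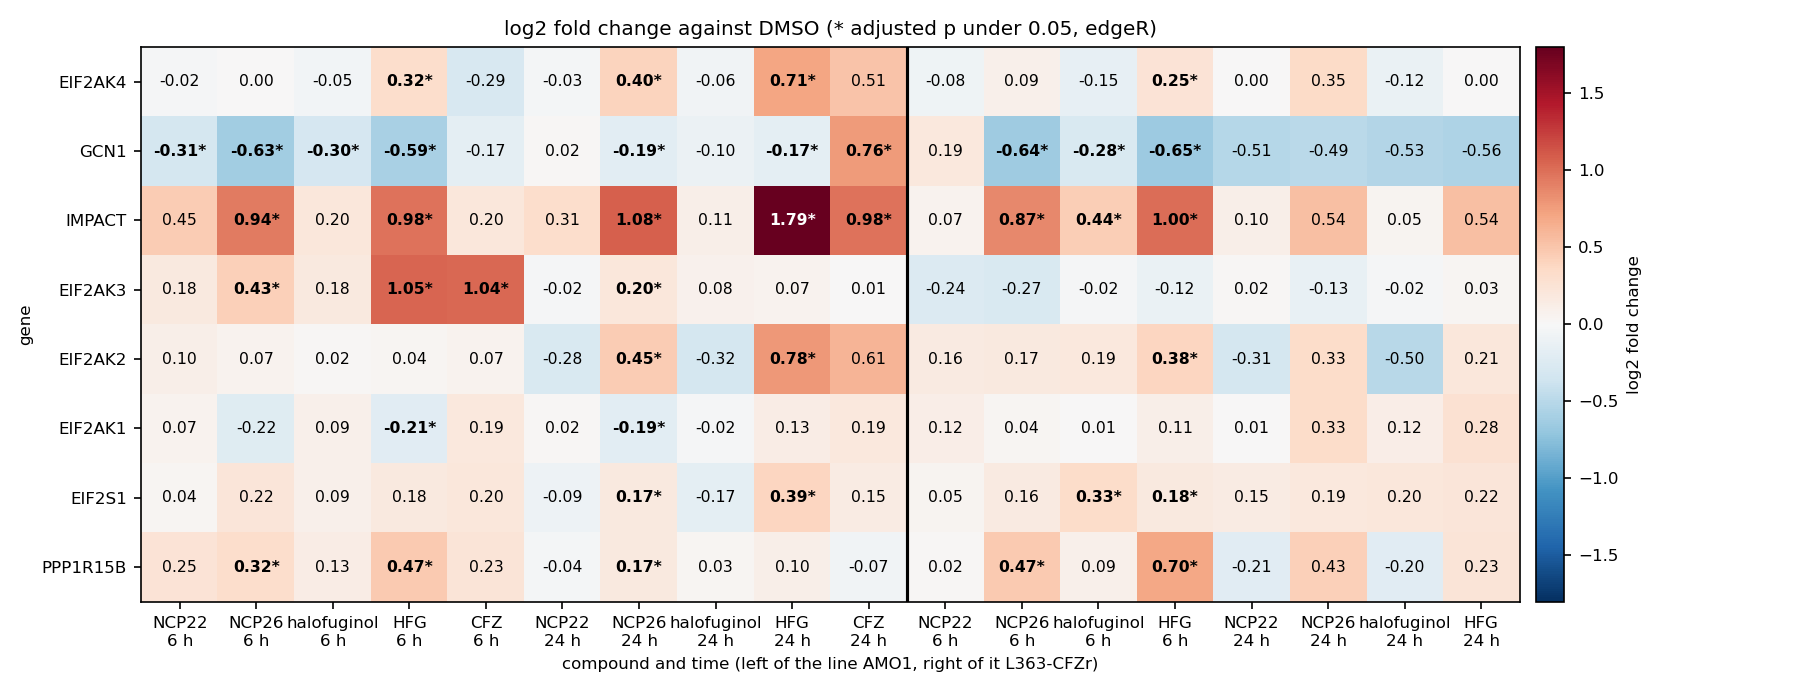
Log2 fold change against DMSO of each gene (rows) for each compound and time (columns), with AMO1 left and L363-CFZr right of the line, and an asterisk where edgeR's adjusted p is under 0.05. IMPACT is highest with HFG in AMO1 at 24 h (1.79), EIF2AK3 is called in AMO1 and in no L363-CFZr column, and no asterisk stands in L363-CFZr at 24 h.

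EIF2AK4, the sensor of uncharged tRNA, changed little at 6 h and was higher with NCP26 and HFG at 24 h in AMO1. The DMSO libraries at 24 h stood at 45.6, 39.6 and 45.9 CPM, NCP26 at 55.6, 59.9 and 58.6, and HFG at 56.9, 82.3 and 71.7. Neither group overlapped DMSO, and EIF2AK4 rose by 0.40 ± 0.09 with NCP26 (log2 fold change ± SE, with the adjusted p of edgeR's quasi-likelihood test after Benjamini-Hochberg in brackets here and below, 4.8e-04) and by 0.71 ± 0.12 with HFG (3.9e-05). Halofuginol at 39.5, 45.2 and 40 CPM and NCP22 at 41.8, 43 and 42 overlapped DMSO. Because the DMSO libraries lie in another set, the compounds were also set against each other inside one set, where EIF2AK4 was higher with HFG than with halofuginol by 0.78 ± 0.12 (2.7e-05) and higher with NCP26 than with NCP22 by 0.45 ± 0.09 (0.00122). At 6 h HFG gave 69.1, 55.4 and 54.9 CPM against 49.5, 47.7 and 45 in DMSO, a rise of 0.32 ± 0.11 (0.0285) that did not pass the test without any one of the 3 DMSO libraries or without HFG replicate 1 (0.20 to 0.33, adjusted p 0.0536 to 0.123). In L363-CFZr at 6 h HFG gave 82.7, 83.7 and 88.1 CPM against 69.5, 75.4 and 74.5, a rise of 0.25 ± 0.08 (0.0110). That call was lost without HFG replicate 3 or DMSO replicate 1 (both 0.23, adjusted p 0.0531 and 0.0591). With NCP26 at 24 h L363-CFZr cells held 106, 81.9 and 107 CPM against 81.4, 78.6 and 69.1 in DMSO, which missed the threshold (0.35 ± 0.16, 0.234) and passed it without DMSO replicate 2 (0.39, 0.0380). CFZ gave 55.0, 75.2 and 48.8 CPM at 24 h in AMO1 and missed the threshold (0.51 ± 0.19, 0.0791). It passed without CFZ replicate 2 (0.29, 0.0474) or without CFZ replicate 3 (0.65, 0.0410). At 6 h CFZ gave 39.0, 38.5 and 38.3 CPM in AMO1, below every DMSO library, and was not called (-0.29).

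GCN1, the large ribosome-associated protein through which GCN2 is activated, was lower at 6 h with NCP26, HFG, halofuginol and NCP22 in AMO1. Its DMSO libraries stood at 279, 255 and 264 CPM. NCP26 gave 129, 192 and 189 CPM, HFG 147, 189 and 192, halofuginol 210, 234 and 212, and NCP22 216, 221 and 216, and no treated library reached the lowest DMSO library. GCN1 fell by 0.63 ± 0.12 with NCP26 (0.00171), by 0.59 ± 0.09 with HFG (4.3e-05), by 0.30 ± 0.07 with halofuginol (0.0151) and by 0.31 ± 0.07 with NCP22 (0.00425). The halofuginol call was lost without DMSO replicate 1, halofuginol replicate 1 or halofuginol replicate 3 (-0.29 to -0.27, adjusted p 0.0571 to 0.117). CFZ at 226 to 245 CPM also lay below every DMSO library at 6 h in AMO1 and was not called. In L363-CFZr at 6 h DMSO stood at 322, 300 and 322 CPM, NCP26 at 218, 152 and 229, HFG at 203, 179 and 202 and halofuginol at 269, 277 and 248. Again no library of these 3 compounds overlapped DMSO, with falls by 0.64 ± 0.15 (0.0134), 0.65 ± 0.06 (1.3e-08) and 0.28 ± 0.05 (0.00163). NCP22 at 336, 316 and 410 CPM overlapped DMSO and was not called (0.19 ± 0.09, 0.724). The NCP26 call in L363-CFZr was lost without DMSO replicate 1 or 3 (-0.63 and -0.61, adjusted p 0.0642 and 0.0663).

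Fold changes at 6 h ran with base composition over all genes in most comparisons with DMSO, and GCN1 has the most GC-rich transcript of the 8 (56.3%). The correlation of log2 fold change with transcript GC was -0.37 with NCP26, -0.32 with HFG, -0.46 with halofuginol and -0.50 with NCP22 in AMO1, and -0.36 with NCP26, -0.56 with HFG and -0.70 with halofuginol in L363-CFZr. It was weak with CFZ in AMO1 (-0.11) and absent with NCP22 in L363-CFZr (-0.01). When GC content entered the fit as an offset, GCN1 stood at -0.42 with NCP26 (0.0217) and -0.39 with HFG in AMO1, and at -0.37 with HFG in L363-CFZr, and remained called. It was no longer called with halofuginol in AMO1 (-0.20, 0.0870), NCP22 in AMO1 (-0.17, 0.0906), NCP26 in L363-CFZr (-0.46, 0.0751) or halofuginol in L363-CFZr (-0.10, 0.312). With CFZ at 6 h in AMO1, 4 of the 8 genes passed with the offset and 1 without it (29.9% and 26.9% of all genes). At the opposite end of composition lies IMPACT with a GC content of 37.4%, and its values with the offset are given below.

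At 24 h GCN1 differed little between the compounds and DMSO in AMO1. DMSO held 199, 217 and 217 CPM, NCP26 191, 182 and 187, and HFG 184, 189 and 190. The falls by 0.19 ± 0.05 (0.00327) and 0.17 ± 0.06 (0.0217) passed the test without overlap. They were not called with the GC offset (-0.05 and -0.06), and the HFG call was lost without DMSO replicate 2 or 3 or without any one of the HFG libraries (-0.17 to -0.15, adjusted p 0.0516 to 0.0767). CFZ gave 280, 480 and 265 CPM, a rise of 0.76 ± 0.24 (0.0467) that stood at 0.39 without replicate 2, the library that stands apart (1.5e-05), and that was lost without any one of the DMSO libraries (0.73 to 0.78, adjusted p 0.134 to 0.146). The L363-CFZr DMSO libraries held 254, 521 and 254 CPM at 24 h, and all 4 compounds lay at -0.56 to -0.49 against them, none called. Without replicate 2 the value was -0.02 with NCP26 and -0.07 with HFG, so those negative values rest on that library.

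IMPACT, which keeps GCN2 inactive by occupying GCN1, had the largest rise of the 8 genes. In AMO1 at 6 h DMSO held 10.6, 14.2 and 13 CPM, NCP26 23.1, 26.3 and 22.4, and HFG 27.6, 23.9 and 23.9. At 24 h DMSO held 9.05, 10.4 and 10.7 CPM, NCP26 25.5, 22.0 and 17.5, and HFG 33.2, 38.7 and 33.2. No NCP26 or HFG library overlapped its DMSO group. IMPACT rose 1.91-fold with NCP26 (log2 0.94 ± 0.17, 0.00116) and 1.97-fold with HFG (0.98 ± 0.17, 1.3e-04) at 6 h. At 24 h it rose 2.11-fold (1.08 ± 0.18, 4.7e-06) and 3.45-fold (1.79 ± 0.15, 1.2e-08). With the GC offset these 4 values were 0.67, 0.66, 0.92 and 1.67 and all stayed called. Halofuginol and NCP22 were not called at either time, with NCP22 at 17.9, 15.2 and 19.1 CPM at 6 h above every DMSO library (0.45 ± 0.18, 0.109). Inside one set at 24 h HFG exceeded halofuginol by 1.68 ± 0.17 (1.5e-07).

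In L363-CFZr IMPACT was about as responsive at 6 h. DMSO held 25.7, 23 and 22.5 CPM, NCP26 41.5, 41.2 and 45.7, HFG 47.1, 46.1 and 44.8, and halofuginol 30.8, 34.7 and 33.1. None of the treated libraries overlapped DMSO, and IMPACT rose by 0.87 ± 0.13 with NCP26 (0.00150), by 1.00 ± 0.11 with HFG (1.3e-07) and by 0.44 ± 0.12 with halofuginol (0.00982). The halofuginol call was lost without halofuginol replicate 2 or DMSO replicate 3 (0.38 and 0.39, adjusted p 0.0544 and 0.0554) and with the GC offset (0.14, 0.559), while NCP26 and HFG stood at 0.62 and 0.57 with that offset. At 24 h the DMSO libraries spread from 19.7 to 36.6 CPM, and NCP26 at 36, 41.2 and 46.2 and HFG at 39.0, 36.2 and 48.5 overlapped them (both 0.54, adjusted p 0.186 and 0.290). Without DMSO replicate 2 these values were 0.37 with NCP26 (0.0896) and 0.38 with HFG (0.0639), still not called. CFZ at 24 h in AMO1 gave 26.5, 13.4 and 17.5 CPM, a rise of 0.98 ± 0.25 (0.0209) that was 1.15 without CFZ replicate 2 (1.1e-04). It was lost without any one DMSO library or without CFZ replicate 1 (0.68 to 1.02, adjusted p 0.0602 to 0.0797).

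EIF2AK3, the endoplasmic reticulum sensor PERK, about doubled with HFG and CFZ at 6 h in AMO1 and was not called in L363-CFZr. In AMO1 at 6 h DMSO stood at 172, 158 and 180 CPM, HFG at 351, 351 and 351 (916, 1293 and 2163 counts), CFZ at 349, 349 and 347, and NCP26 at 203, 249 and 232. The HFG and CFZ libraries were about double those of DMSO and nothing overlapped. EIF2AK3 rose 2.07-fold with HFG (1.05 ± 0.07, 1.5e-08), 2.06-fold with CFZ (1.04 ± 0.07, 1.5e-10) and 1.35-fold with NCP26 (0.43 ± 0.10, 0.00479). With the GC offset these values were 0.88, 1.01 and 0.29. Halofuginol at 194, 190 and 201 CPM and NCP22 at 190, 205 and 191 lay above every DMSO library but were not called (both 0.18 ± 0.07, 0.158 and 0.118), and both passed without DMSO replicate 3 (both 0.23, adjusted p 0.0273 and 0.0333). By 24 h EIF2AK3 with HFG was 201, 193 and 209 CPM against 200, 189 and 189 in DMSO, overlapping it, and with CFZ 191, 195 and 171. NCP26 at 221, 212 and 231 CPM was still higher than DMSO by 0.20 ± 0.06 (0.00296), a call lost with the GC offset (0.11, 0.0671).

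In L363-CFZr EIF2AK3 did not pass the test with any compound at either time. At 6 h DMSO held 80.3, 76.1 and 70.2 CPM, NCP26 65.0, 54.8 and 65.6, HFG 59.9, 73.1 and 69.6, and halofuginol 77.7, 74.3 and 75.5. NCP26 lay below DMSO without overlap but was not called (-0.27 ± 0.12, 0.143), nor was HFG (-0.12 ± 0.09, 0.278). With the GC offset both were called lower (-0.40, 0.0330 and -0.34, 0.00364). The log2 effect of HFG on EIF2AK3 at 6 h was lower in L363-CFZr than in AMO1 by -1.16 ± 0.12 (interaction, 2.9e-07), and that of NCP26 by -0.72 ± 0.14 (0.0109). Both effects were positive in AMO1 and negative, though not called, in L363-CFZr. In AMO1 the effect of HFG was also smaller at 24 h than at 6 h by -0.95 ± 0.09 (1.3e-07), and that of CFZ by -1.05 ± 0.13 (8.0e-05).

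HSPA5, the chaperone BiP that holds PERK inactive, and DNAJC3, a cochaperone that inhibits PERK, did not follow EIF2AK3 in all treatments. With CFZ at 6 h HSPA5 rose by 1.58 ± 0.05 (6.4e-17) and DNAJC3 by 0.71 ± 0.09 (1.8e-06). With HFG at 6 h in AMO1, where EIF2AK3 rose as much as with CFZ, HSPA5 fell by 0.76 ± 0.05 (1.4e-08) and DNAJC3 was at 0.05 ± 0.09 (0.674). NCP26 at 6 h in AMO1 likewise lowered HSPA5, by 0.77 ± 0.09 (6.6e-05), and in L363-CFZr HSPA5 fell by 0.32 ± 0.10 with NCP26 (0.0482) and by 0.41 ± 0.05 with HFG (1.3e-07). DNAJC3 rose in L363-CFZr at 6 h with HFG (0.41 ± 0.06, 1.2e-05) and halofuginol (0.25 ± 0.06, 0.00442). These groups lie in another set than their DMSO libraries, and no value with the GC offset is given for HSPA5 or DNAJC3.

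EIF2AK2, the double-stranded RNA sensor PKR, was higher at 24 h with NCP26 and HFG in AMO1. DMSO held 64, 55.1 and 55.6 CPM, NCP26 77.7, 79.7 and 80.4, and HFG 96.3, 109 and 92.4, with no overlap. It rose by 0.45 ± 0.08 with NCP26 (2.9e-05) and by 0.78 ± 0.09 with HFG (8.6e-07). Halofuginol at 44.2, 43.8 and 49.9 CPM and NCP22 at 48.3, 48.2 and 44.1 lay below every DMSO library and were not called (-0.32 ± 0.10, 0.233 and -0.28 ± 0.10, 0.789). Inside one set the difference was larger, with HFG above halofuginol by 1.12 ± 0.10 (3.4e-08) and NCP26 above NCP22 by 0.75 ± 0.09 (1.2e-05). At 6 h in AMO1 EIF2AK2 was at 0.02 to 0.10 with all 5 compounds, none called, and the HFG value of 0.04 was -0.22 with the GC offset. The effect of HFG was larger at 24 h than at 6 h by 0.77 ± 0.14 (2.0e-04). CFZ gave 76.7, 110 and 67.9 CPM at 24 h, above every DMSO library, and missed the threshold (0.61 ± 0.20, 0.0564), but passed without CFZ replicate 2 (0.36, 0.00787).

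In L363-CFZr EIF2AK2 was also higher at 24 h with NCP26 than with NCP22 and with HFG than with halofuginol. NCP26 held 86.0, 72.8 and 91.8 CPM, HFG 76.7, 77.9 and 76.7, halofuginol 53.2, 47.1 and 41.1 and NCP22 48.4, 62.4 and 51.2. HFG exceeded halofuginol by 0.70 ± 0.09 (5.2e-05) and NCP26 exceeded NCP22 by 0.63 ± 0.12 (9.5e-04), without overlap. DMSO at 54.9, 87.1 and 55.0 CPM overlapped NCP26, HFG and NCP22 but not halofuginol, and no comparison with it passed. Without its replicate 2 EIF2AK2 passed with NCP26 (0.61, 0.00188) and HFG (0.50, 2.0e-04). At 6 h HFG gave 110, 110 and 108 CPM against 78.7, 93.6 and 86.7, a rise of 0.38 ± 0.08 (2.6e-04) that was 0.02 with the GC offset (0.877).

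EIF2AK1, the heme and mitochondrial stress kinase HRI, changed by small amounts. In AMO1 it fell by 0.21 ± 0.07 with HFG at 6 h (150, 153 and 164 CPM against 192, 177 and 172, adjusted p = 0.0294) and by 0.19 ± 0.05 with NCP26 at 24 h (204, 197 and 219 against 230, 241 and 230, 0.00368), neither with overlap. The first call was lost without DMSO replicate 1 or without any one HFG library (-0.23 to -0.18, adjusted p 0.0535 to 0.0917). NCP26 at 6 h in AMO1, at 143 to 161 CPM against 172 to 192, also lay below every DMSO library and was not called. In L363-CFZr at 24 h NCP26 held 336, 324 and 310 CPM and HFG 314, 317 and 305, above DMSO at 257, 242 and 260 without overlap. Neither was called (0.33 ± 0.12, 0.145 and 0.28 ± 0.10, 0.249), and both passed without DMSO replicate 2 at the same values of 0.33 (0.00521) and 0.28 (4.6e-04).

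EIF2S1, the substrate, differed from DMSO by at most 0.39 on the log2 scale in every comparison. In AMO1 at 24 h DMSO held 110, 109 and 122 CPM, NCP26 132, 127 and 127, and HFG 147, 150 and 149, without overlap. It rose by 0.17 ± 0.07 with NCP26 (0.0346) and by 0.39 ± 0.07 with HFG (6.8e-05). The NCP26 value was 0.03 with the GC offset (0.674), and the call was lost without DMSO replicate 1 or 2 or NCP26 replicate 1 or 2 (0.12 to 0.17, adjusted p 0.0613 to 0.175). At 6 h in AMO1 it was at 0.22 with NCP26 (0.0914) and 0.18 with HFG (0.0593), neither called, and at -0.03 and -0.11 with the GC offset. In L363-CFZr at 6 h DMSO held 170, 175 and 157 CPM, halofuginol 212, 220 and 209, and HFG 186, 185 and 181. It rose by 0.33 ± 0.06 with halofuginol (0.00123) and by 0.18 ± 0.07 with HFG (0.0259). With the GC offset the first was 0.06 (0.588) and the second turned to -0.21 (0.00387), so its direction depends on that setting. The HFG call was also lost without DMSO replicate 1 or 3 or any one HFG library (0.12 to 0.20, adjusted p 0.0507 to 0.117).

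PPP1R15B, the constitutive phosphatase subunit CReP, was higher at 6 h with NCP26 and HFG in both lines. AMO1 DMSO held 105, 106 and 129 CPM, NCP26 133, 143 and 142, and HFG 167, 152 and 152. L363-CFZr DMSO held 112, 113 and 114 CPM, NCP26 159, 132 and 172, and HFG 183, 171 and 183. No treated library overlapped DMSO, and in AMO1 PPP1R15B rose by 0.32 ± 0.11 (0.0316) with NCP26 and 0.47 ± 0.09 (5.8e-04) with HFG. In L363-CFZr it rose by 0.47 ± 0.12 (0.0182) and 0.70 ± 0.07 (8.8e-09). Some other compounds also lay above every DMSO library at 6 h, without being called. These were NCP22 in AMO1 (mean 136 CPM, 133 to 139, beside a mean of 139 with NCP26) and halofuginol in L363-CFZr (121 to 127 CPM). With the GC offset the NCP26 value in AMO1 was 0.21 and was not called (0.0908). Both NCP26 calls were lost when single libraries were left out. In AMO1 these were DMSO replicate 1 or 2 and NCP26 replicate 2 or 3 (0.25 to 0.32, adjusted p 0.0678 to 0.148), and in L363-CFZr any one DMSO library and NCP26 replicate 1 or 3 (0.38 to 0.47, adjusted p 0.0517 to 0.0874). In AMO1 at 24 h only NCP26 was called (207, 217 and 222 CPM against 198, 189 and 186, 0.17 ± 0.06, 0.00997), and this value was 0.10 with the GC offset. Of all 8 genes, 4 were called with that offset for NCP26 at 24 h in AMO1 and 8 without it (59.2% and 60.7% of all genes). In L363-CFZr at 24 h NCP26 held 186, 198 and 193 CPM against 126, 160 and 136 (0.43 ± 0.15, 0.128). Without DMSO replicate 2 NCP26 was at 0.56 (2.8e-04) and HFG at 0.37 (1.9e-04), both called.

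PPP1R15A, the stress-induced counterpart of CReP known as GADD34, rose more than PPP1R15B in AMO1 at 6 h, by 1.22 ± 0.13 with NCP26 (2.8e-05), 1.52 ± 0.09 with HFG (1.4e-09) and 2.11 ± 0.08 with CFZ (2.3e-15). In L363-CFZr at 6 h PPP1R15A rose by 0.79 ± 0.11 with NCP26 (8.4e-04) and by 0.54 ± 0.08 with HFG (7.0e-06), and fell by 0.55 ± 0.10 with halofuginol (0.00115). The HFG and halofuginol libraries lie there in another set than DMSO. With halofuginol 25.8% of all genes were called, and 2.39% with the GC offset. No value with the offset is given for PPP1R15A. At 24 h it rose by 1.33 ± 0.05 with NCP26 and 0.79 ± 0.06 with HFG in AMO1 and by 1.48 ± 0.12 with NCP26 in L363-CFZr (0.00107), where HFG missed the threshold (0.67 ± 0.12, 0.0551).

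All groups of a line were also fitted together, with the set as a further factor, because compound and set coincide for several groups. In AMO1 that factor rests on the 3 CFZ 24 h libraries alone, one of which is the replicate that stands apart, and in L363-CFZr on NCP22 at 6 h alone. For AMO1 at 24 h IMPACT stood at 1.81 with NCP26 (7.2e-06) and at 2.53 with HFG (9.6e-09), both called. EIF2S1 stood at 0.55 with HFG (0.00206). EIF2AK4 was no longer called with NCP26 (0.18, 0.643) or HFG (0.49, 0.142), nor was EIF2AK2 with NCP26 (0.18, 0.591) or HFG (0.52, 0.0668), or GCN1 with NCP26 (-0.65, 0.0512) or HFG (-0.62, 0.0549). With NCP26 IMPACT was the only 1 of the 8 genes still called, beside 25.2% of all genes. The NCP26 calls of EIF2AK3, EIF2AK1, EIF2S1 and PPP1R15B at 24 h were therefore lost too. For L363-CFZr at 6 h with HFG GCN1 (adjusted p = 0.0404), IMPACT (1.23, 0.00207) and PPP1R15B (0.83, 0.00126) stayed called, while EIF2AK4 (0.47, 0.129), EIF2AK2 (0.45, 0.254) and EIF2S1 (0.18, 0.552) were not. With halofuginol GCN1 (-0.60, 0.364), IMPACT (0.70, 0.158) and EIF2S1 (0.36, 0.342) were not called, beside 0.730% of all genes. Fitting the groups together without the set factor already changed the counts. In AMO1 at 24 h 5 of the 8 genes were then called with NCP26 and 4 with HFG (49.3% and 51.0% of all genes). With the set factor these were 1 and 2 (25.2% and 31.3%). In L363-CFZr at 6 h 3 were called with HFG and 0 with halofuginol, both with the set factor and without it (40.0% and 6.94% without it).

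The structures of NCP26 and NCP22, which carry code names, are not described here. HFG and halofuginol are close analogs of which halofuginol carries a hydroxyl group where HFG has a ketone. The 3 pairs NCP26 against NCP22, HFG against halofuginol and NCP26 against HFG were compared at 1 µM in both lines and at both times, 12 comparisons in all, with p-values adjusted over all genes tested in each. NCP26 differed from NCP22 in 3 of the 8 genes in AMO1 at 6 h (24.7% of all genes tested, and 0 of the 8 in DESeq2), 7 at 24 h (52.0%), 3 in L363-CFZr at 6 h (20.4%) and 5 at 24 h (34.1%). HFG differed from halofuginol in 6 (51.7%), 4 (56.6%), 6 (47.3%) and 3 (21.9%) of them in the same order. NCP26 differed from HFG in 1 gene in AMO1 at 6 h (0.260%) and 5 at 24 h (44.9%). It differed from HFG in none in L363-CFZr at 6 h (0%) or 24 h (12.9%) in edgeR or DESeq2, with 0 and 2 at an unadjusted p under 0.05. With the GC offset, and in the same order, NCP26 differed from NCP22 in 2 (26.1%), 4 (49.5%), 2 (14.3%) and 5 (33.9%) genes. HFG then differed from halofuginol in 6 (51.7%), 5 (56.4%), 6 (44.9%) and 3 (20.5%). NCP26 then differed from HFG in 1 (0.512%), 5 (44.5%), 0 (0%) and 1 (14.8%).

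IMPACT separated NCP26 from NCP22 and HFG from halofuginol in all 4 settings. NCP26 exceeded NCP22 by 0.52 ± 0.15 (0.0230) and 0.79 ± 0.19 (0.00295) at 6 h and 24 h in AMO1 and by 0.80 ± 0.14 (0.00310) and 0.43 ± 0.12 (0.0147) in L363-CFZr. HFG exceeded halofuginol by 0.78 ± 0.15 (4.2e-04) at 6 h in AMO1, with 1.68 at 24 h as given above, and by 0.56 ± 0.09 (7.6e-06) and 0.49 ± 0.13 (0.0114) in L363-CFZr. None of these groups overlapped. DESeq2 did not call NCP26 against NCP22 at 6 h in AMO1 (0.52, 0.0906). Single libraries decided 3 of these IMPACT calls. NCP26 against NCP22 at 6 h in AMO1 was lost without NCP26 replicate 2 or NCP22 replicate 1 or 2 (0.43 to 0.54, adjusted p 0.0638 to 0.0965), at 24 h in L363-CFZr without NCP26 replicate 3 (0.34, 0.0696), and HFG against halofuginol at 24 h in L363-CFZr without HFG replicate 3 (0.36, 0.0717).

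EIF2AK3 was higher with HFG than with halofuginol in AMO1 at 6 h by 0.87 ± 0.05 (9.6e-10). At 24 h in AMO1 the difference was -0.00 with a 95% interval of -0.14 to 0.14, and in L363-CFZr the intervals were -0.26 to 0.05 at 6 h and -0.15 to 0.23 at 24 h. With NCP26 EIF2AK3 was lower than with HFG in AMO1 at 6 h by -0.59 ± 0.09 (0.0225), the only one of the 8 genes that differed there. That call was lost without NCP26 replicate 2 or 3 or without any one HFG library (-0.63 to -0.58, adjusted p 0.0717 to 0.199). PPP1R15B was higher with HFG than with halofuginol at 6 h in AMO1 (0.33 ± 0.08, 0.00149) and at both times in L363-CFZr (0.62 ± 0.05, 4.2e-11 and 0.43 ± 0.07, 2.5e-04). GCN1 was lower with HFG than with halofuginol at 6 h in both lines (-0.29 ± 0.08, 0.00576 and -0.37 ± 0.05, 4.1e-07), and at 24 h the intervals were -0.20 to 0.08 and -0.16 to 0.11.

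At 24 h in AMO1 HFG gave more IMPACT, EIF2AK2, EIF2AK1, EIF2S1 and EIF2AK4 mRNA than NCP26. The differences of NCP26 from HFG were -0.72 ± 0.15 (7.9e-04) for IMPACT, -0.35 ± 0.08 (0.00176) for EIF2AK2, -0.33 ± 0.06 (2.8e-04) for EIF2AK1, -0.23 ± 0.06 (0.00522) for EIF2S1 and -0.32 ± 0.11 (0.0242) for EIF2AK4. Only the EIF2AK4 groups overlapped, and its call was lost without NCP26 replicate 1 or 3 or HFG replicate 2 or 3 (-0.32 to -0.19, adjusted p 0.0557 to 0.182). In L363-CFZr at 24 h the same difference for IMPACT was -0.00 with an interval of -0.28 to 0.27, and for EIF2AK2 0.11 with an interval of -0.09 to 0.31.

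**Figure D3:**
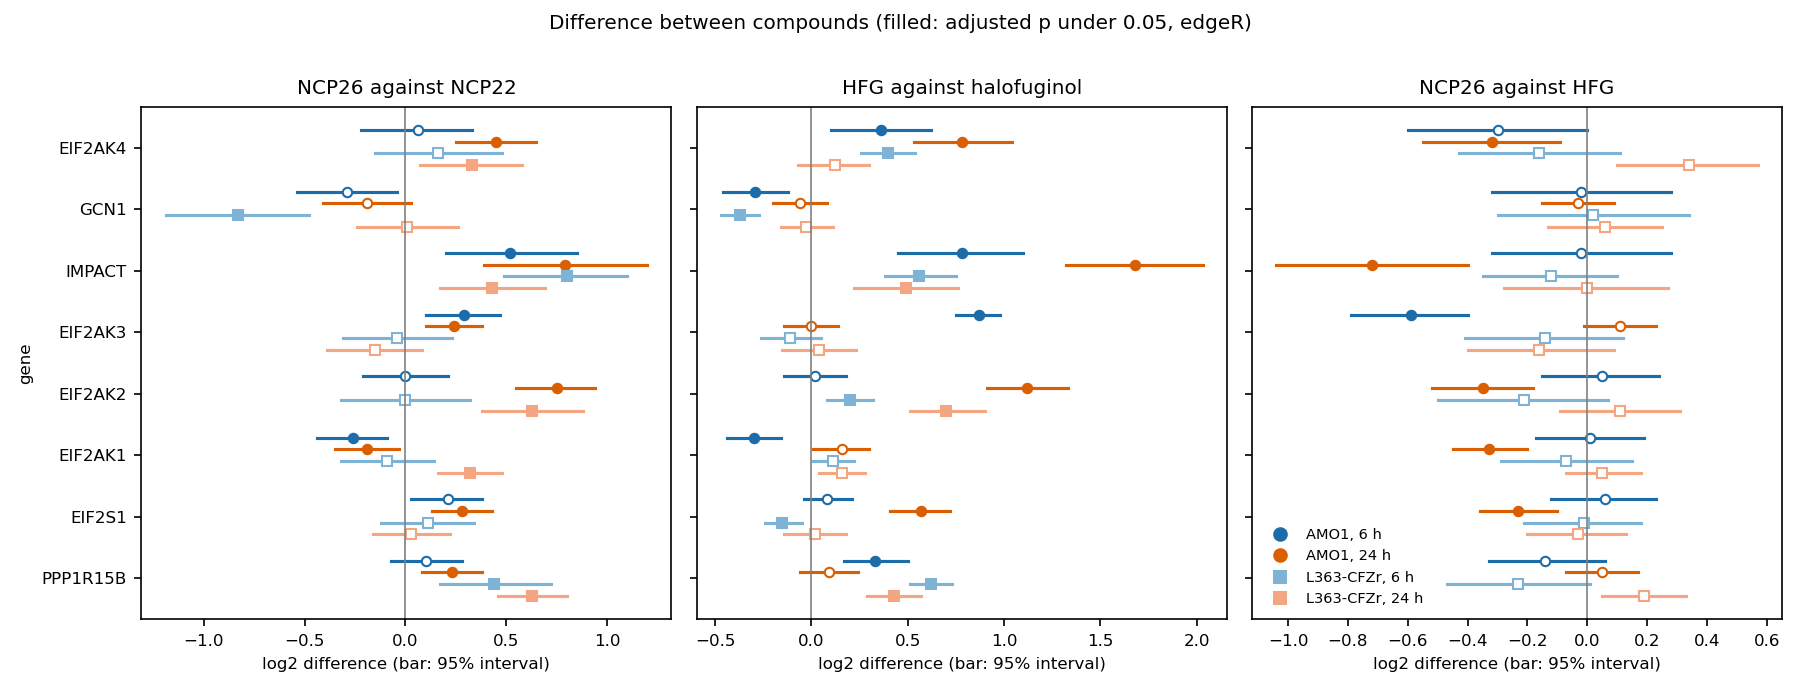
Log2 difference between compounds at 1 µM for each gene (rows), with 95% intervals, circles for AMO1 and squares for L363-CFZr, and filled symbols where edgeR's adjusted p is under 0.05. IMPACT lies right of 0 in the first and second panels in all 4 settings, and in the panel of NCP26 against HFG no L363-CFZr symbol is filled.

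Without inhibitor the lines differed in 4 of the 8 genes at 6 h (60.2% of all genes tested) and in 3 at 24 h (39.9%). At 6 h EIF2AK3 was lower in L363-CFZr by -1.21 ± 0.09 (75.5 against 170 CPM, 3.0e-10), EIF2AK4 higher by 0.59 ± 0.10 (73.1 against 47.4 CPM, 4.3e-05) and IMPACT higher by 0.87 ± 0.17 (23.7 against 12.6 CPM, 2.2e-04). GCN1 was higher by 0.21 ± 0.07 (0.0140), a call lost without AMO1 replicate 2 or L363-CFZr replicate 1 (0.18 and 0.19, adjusted p 0.0768 and 0.0709) and with the GC offset (0.14, 0.0521). At 24 h EIF2AK3 was lower by -1.70 ± 0.13 (1.0e-04), EIF2AK4 higher by 0.84 ± 0.14 (0.00246) and IMPACT higher by 1.49 ± 0.22 (0.00171). These stood at -1.81 (3.1e-18), 0.78 (1.3e-07) and 1.64 (8.7e-10) without L363-CFZr replicate 2. Without L363-CFZr replicate 2, 7 genes differed at 24 h (65.0% of all genes), with GCN1 at 0.25 (3.2e-04), PPP1R15B at -0.54 (3.7e-08), EIF2S1 at 0.23 (0.00711) and EIF2AK1 at 0.14 (0.0322) added. The lines lie in different sets of sample numbers, so line and set cannot be told apart.

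In DMSO from 6 h to 24 h, 5 of the 8 genes differed in AMO1 (46.5%). PPP1R15B rose by 0.75 ± 0.08 (1.8e-07) and EIF2AK1 by 0.38 ± 0.07 (9.6e-05), whereas EIF2AK2 fell by 0.69 ± 0.10 (9.0e-06), GCN1 by 0.33 ± 0.07 (2.6e-04) and EIF2S1 by 0.33 ± 0.08 (0.00209). In L363-CFZr 0 of 8 passed in edgeR (14.8% of all genes), with 4 at an unadjusted p under 0.05 and 1 in DESeq2. Without its 24 h replicate 2, 7 passed (41.1% of all genes), among them EIF2AK2 (-0.64, 8.8e-05), EIF2AK1 (0.38, 2.9e-04) and PPP1R15B (0.23, 0.0320), while GCN1 turned from 0.18 to -0.30 (0.00211).

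The test of the difference between lines found 1 of the 8 genes for NCP26 at 6 h (2.71% of all genes tested), 2 for HFG at 6 h (20.7%), 1 for NCP26 at 24 h (5.41%) and 2 for HFG at 24 h (16.9%). Without L363-CFZr DMSO replicate 2 it found 3 for NCP26 (21.1%), with IMPACT (-0.74, 0.0307) and PPP1R15B (0.36, 0.00793) added, and 4 for HFG (33.4%), with EIF2S1 (-0.33, 0.0144) and PPP1R15B (0.26, 0.0254) added, at 24 h. Between the times it found 1 gene for NCP26 (17.5%), 6 for HFG (39.6%) and 3 for CFZ (19.6%) in AMO1, and 5 for CFZ without CFZ replicate 2 (30.6%). In L363-CFZr it found none for NCP26 (0.691%) or HFG (12.3%) in edgeR or DESeq2, with 1 and 1 at an unadjusted p under 0.05. Without DMSO replicate 2 at 24 h it found 3 for HFG (32.9%), GCN1 (0.61, 1.4e-05), IMPACT (-0.59, 0.0163) and PPP1R15B (-0.30, 0.0141), and still none for NCP26 (3.64%). For IMPACT the effect of HFG at 24 h was smaller in L363-CFZr than in AMO1 by -1.26 ± 0.27 (0.00688), and for EIF2AK4 by -0.70 ± 0.20 (0.0283). These differences were -1.41 (2.8e-05) and -0.66 (0.00322) without L363-CFZr DMSO replicate 2. At 6 h the same difference for IMPACT was 0.03 with an interval of -0.38 to 0.44.

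The genes downstream of eIF2 phosphorylation were counted from a list of 12 targets, of which NUPR1 did not pass the filter on low counts. In AMO1 at 6 h 9 of 11 tested were higher and 1 lower with NCP26 and likewise with HFG, 3 were higher with halofuginol, 5 of 10 with NCP22 and 10 of 11 with CFZ. The shares of all genes called there were 37.3%, 54.3%, 3.62%, 13.5% and 26.9% in the order NCP26, HFG, halofuginol, NCP22 and CFZ. NCP26 at 24 h raised 9 and lowered 2, HFG raised 9 and lowered 1, and CFZ raised 2 and lowered 1, beside 60.7%, 59.0% and 27% of all genes, while 0 were called with halofuginol or NCP22. In L363-CFZr 10 were higher with NCP26 and with HFG at 6 h, 9 with NCP26 and 6 with HFG at 24 h, and 6 were lower with halofuginol at 6 h. Of all genes, 18.8% were called there with NCP26, 54.5% with HFG and 25.8% with halofuginol at 6 h, and 7.09% with NCP26 and 1.17% with HFG at 24 h. The halofuginol share was 2.39% with the GC offset, under which the list was not counted. The amino acid synthesis enzyme ASNS rose by 0.91 ± 0.09 with NCP26 (1.9e-05) and by 0.63 ± 0.07 with HFG (2.9e-06) in AMO1 at 6 h and by 2.33 ± 0.11 (1.0e-06) and 2.29 ± 0.07 (9.2e-18) in L363-CFZr. TRIB3, a pseudokinase that restrains this response, rose by 1.49 ± 0.10 (7.0e-07) and 1.12 ± 0.08 (1.9e-08) in AMO1 and by 3.09 ± 0.12 (1.6e-07) and 2.99 ± 0.07 (1.3e-20) in L363-CFZr at 6 h. DDIT3, the transcription factor CHOP, rose by 1.86 ± 0.10 and 1.79 ± 0.10 in AMO1 and by 2.02 ± 0.13 and 1.67 ± 0.09 in L363-CFZr at 6 h. The mRNA of ATF4 was not called at 6 h in AMO1 with NCP26 (-0.22 ± 0.10, 0.111) or HFG (-0.01 ± 0.06, 0.944), and rose with CFZ by 0.65 ± 0.06 (2.1e-08). In L363-CFZr ATF4 rose at 6 h by 0.90 ± 0.12 with NCP26 (0.00106) and by 0.72 ± 0.05 with HFG (7.4e-11).

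Among the 10 genes of the unfolded protein response, 8 were higher and 0 lower with CFZ at 6 h in AMO1, beside 2 higher and 2 lower with NCP26 and 3 and 3 with HFG. The latter counts are close to the 37.3% and 54.3% of all genes called, and the share with CFZ was 26.9%. The median over the list was 0.37 with CFZ, beside -0.01 over all genes, and 0.07 with HFG, beside 0.01, so EIF2AK3 stood at about 1.05 with both compounds while this list differed in count. Of the interferon genes, counted because PKR is one of them, 12 of 13 tested were higher and 1 lower with HFG at 24 h in AMO1 (median 1.40, beside -0.00 over all genes), 7 of 12 higher with NCP26 and 0 of 11 with halofuginol. Of all genes, 59.0% were called with HFG, 60.7% with NCP26 and 0.183% with halofuginol. MX1, an antiviral GTPase, rose by 2.73 ± 0.10 with HFG (5.6e-14) and 1.89 ± 0.11 with NCP26 (2.0e-15) there. IFIH1, a sensor of double-stranded RNA, rose by 1.00 ± 0.08 (5.5e-09) and 1.09 ± 0.08 (2.7e-13). In L363-CFZr at 24 h 7 of 12 were higher with NCP26 and 2 of 12 with HFG, beside 7.09% and 1.17% of all genes.

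The partners of the 8 genes were counted in the same way, beside 60.7% of all genes called with NCP26 and 59.0% with HFG at 24 h in AMO1. Of the 7 other eIF2 and eIF2B subunits, 3 were higher and 2 lower with HFG at 24 h in AMO1, 2 and 3 with NCP26, and 0 were called in L363-CFZr at 24 h with any of the 4 compounds. The share of all genes called in L363-CFZr at 24 h was at most 7.09%. EIF2S2, the eIF2 beta subunit, passed in 9 of 18 comparisons with DMSO, higher in each. Over these 18 comparisons the share of all genes called ran from 0% to 60.7%, and the counts of comparisons given here were not tested against it. Of the 13 modulators of the kinases, such as HSPA5, DNAJC3 and the ribosomal stalk proteins RPLP1 and RPLP2 that can activate GCN2, NCP26 at 24 h in AMO1 raised 3 and lowered 8, and HFG raised 3 and lowered 6. RPLP1 and RPLP2 each passed in 6 of 18 comparisons, lower in 5 of them. Of the catalytic phosphatase subunits, PPP1CA passed in 8 of 18 comparisons and was lower in all 8. PPP1CB also passed in 8 but was higher in 7 and lower in 1. PPP1CC passed in 4, higher in 2 and lower in 2. No values with the GC offset are given for these partners.

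Across the 22 groups, after the mean of each line was taken out, the genes most like each of the 8 among 10159 were found by Pearson correlation, as a description over groups that share controls. EIF2AK2 ran with ADAR (0.946), MX1 (0.941) and SDAD1 (0.931). By Spearman rank correlation its nearest genes were SDAD1 (0.919), MAK16 (0.895) and RPP40 (0.887), so the place of ADAR and MX1 depends on the measure. GCN1 ran with NOP9 (0.962), SNRNP200 (0.954) and BLTP2 (0.941), and IMPACT with LRIF1 (0.929), BICD1 (0.927) and LYPLAL1 (0.923). PPP1R15B ran with CREBRF (0.973), CPEB3 (0.928) and XIAP (0.920), and EIF2S1 with TMEM70 (0.959), PPIL1 (0.949) and SDAD1 (0.946). EIF2AK4 ran with USP40 (0.900), RASGEF1B (0.891) and ZMYM4 (0.887), and EIF2AK1 with GPR146 (0.901), ALKBH5 (0.892) and ANGPTL4 (0.891). The weakest likeness was that of EIF2AK3, to DOLPP1 (0.831), RGS2 (0.818) and SNW1 (0.807). By Spearman the nearest genes of GCN1 were the same, while those of EIF2AK3, EIF2AK4 and EIF2S1 were all others. Among the 8 genes themselves EIF2AK2 and EIF2S1 correlated at 0.85, EIF2AK4 and IMPACT at 0.77, GCN1 and IMPACT at -0.54, and EIF2AK1 and EIF2S1 at -0.71.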

How the data were processed

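Poly(A) RNA from 66 samples was sequenced in pairs with a directional kit. The authors quantified the reads with kallisto on a human transcriptome and deposited whole-number counts per gene. The submitters' processing notes list hg19 and the methods of the study GRCh38, so no coordinate rests on the files. Coordinates come from GENCODE v44 on GRCh38, where 19299 of 20167 identifiers were found, and promoters from RefSeq GRCh38.p14. Counts were tested in R 4.3.3 with edgeR 4.0.16 (filterByExpr at 10 counts and 15 in total, TMM, quasi-likelihood test, Benjamini-Hochberg adjustment over all genes tested, threshold 0.05), with only the compared groups in a fit. Changes are log2 fold changes ± SE, and levels are CPM scaled by TMM over all libraries. DESeq2 1.42.0 and other settings were tried as alternatives, and the test was checked on simulated counts. The 8 genes are named in each comparison, with the 3 genes most like each, the 5 genes PPP1R15A, ATF4, DDIT3, TRIB3 and ASNS, HSPA5 and DNAJC3 beside EIF2AK3, and the 2 most often called genes of a list. PPP1CB and PPP1CC are given beside PPP1CA. The 8 genes, although named by symbol, and the lists were chosen with earlier results of these data known. Replicates are separate samples by their labels. The study describes its experiments in general as independent repeats with biological triplicates and does not say which applies to these libraries, so p-values measure the spread between these samples. Numbers shared by samples of different groups did not pair them. Not all matched promoter sites are printed, and one is not reported here.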

Additional observations from a re-analysis of the deposited data

Results flagged for a closer look

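The values here are differences between the effects of a compound in 2 lines or at 2 times, each tested as an interaction in edgeR with the adjusted p in brackets. At 6 h the log2 effect on EIF2AK3 in L363-CFZr minus that in AMO1 was -0.72 with NCP26 (0.0109) and -1.16 with HFG (2.9e-07). With NCP26 its mean rose from 170 to 228 CPM in AMO1 and went from 75.5 to 61.8 in L363-CFZr, not called. For HFG on EIF2AK1 the difference was 0.32 (0.0258). There the mean fell from 180 to 156 CPM in AMO1 and went from 201 to 211 in L363-CFZr, not called. At 24 h the difference for NCP26 on EIF2AK1 was 0.50 (0.0274). Its mean fell from 234 to 207 CPM in AMO1 and went from 253 to 323 in L363-CFZr, not called. The effect of HFG at 24 h was smaller in L363-CFZr on EIF2AK4 by -0.70 (0.0283) and on IMPACT by -1.26 (0.00688). Between 6 h and 24 h in AMO1 the effect of NCP26 on GCN1 differed by 0.44 (0.0320). The effect of HFG differed by 0.45 for GCN1 (0.00240), 0.84 for IMPACT (0.00484), -0.95 for EIF2AK3 (1.3e-07), 0.77 for EIF2AK2 (2.0e-04), 0.37 for EIF2AK1 (0.00416) and -0.33 for PPP1R15B (0.0249). The effect of CFZ differed by 0.78 for EIF2AK4 (0.0189), 0.91 for GCN1 (0.0219) and -1.05 for EIF2AK3 (8.0e-05).

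Several of these calls rest on single libraries. Those of EIF2AK1 were lost under 5 of the left-out libraries with HFG at 6 h (0.26 to 0.32, adjusted p 0.0540 to 0.0908) and under 8 with NCP26 at 24 h (0.47 to 0.53, 0.0521 to 0.0867), that of EIF2AK4 with HFG under 6 (-0.74 to -0.57, 0.0508 to 0.0811), that of GCN1 with NCP26 under 7 (0.41 to 0.45, 0.0550 to 0.0765) and that of PPP1R15B with HFG under 6 (-0.32 to -0.27, 0.0544 to 0.0813). With CFZ those of EIF2AK4 and GCN1 were lost under 2 and 4 libraries. Without CFZ replicate 2 at 24 h the CFZ differences were 0.57 for EIF2AK4, 0.55 for GCN1 and -1.10 for EIF2AK3. Without L363-CFZr DMSO replicate 2 the differences between lines at 24 h were 0.49 for EIF2AK1 with NCP26. With HFG they were -0.66 for EIF2AK4 and -1.41 for IMPACT. The treated 24 h groups of AMO1 lie, wholly or for CFZ in part, in another set of sample numbers than their DMSO libraries, and in L363-CFZr at 6 h the HFG libraries lie in another set than DMSO. A difference between times, between lines at 24 h, or between lines with HFG at 6 h therefore cannot be told apart from the set.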

How the results depend on the processing

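Over the 8 genes 28 of 80 values against DMSO passed in AMO1, 12 of 64 in L363-CFZr, 43 of 96 between compounds, 7 of 16 between lines, 5 of 16 between times in DMSO, 6 of 32 for effects between lines and 10 of 40 for effects between times. The share of all genes called ran from 0 to 60.7% in AMO1, 0 to 54.5% in L363-CFZr and 0 to 56.6% between compounds. It was 39.9% and 60.2% between lines and 14.8% and 46.5% between times in DMSO. For effects it ran from 2.71% to 20.7% between lines and from 0.691% to 39.6% between times. The counts were not tested against these shares. Leaving out 1 library gave 24 to 33, 8 to 19, 39 to 44, 6 to 11, 5 to 12, 4 to 10 and 6 to 13 in that order. The highest counts in L363-CFZr, between lines, between times and for both kinds of effect came without DMSO replicate 2 of L363-CFZr at 24 h. Of the 111 values called, 34 lost the call under at least 1 left-out library. With all groups of the line in one fit, 26 of 80 were called in AMO1. Adding the term for the set of sample numbers left 16 of 80. The GC offset gave 8 of 16 between times in DMSO. Among values called under either setting, directions turned for EIF2AK2 with HFG at 6 h in AMO1 (0.04, and -0.22 with the GC offset), EIF2S1 with HFG at 6 h in L363-CFZr (0.18 and -0.21 with it), PPP1R15B with NCP26 at 24 h in AMO1 (0.17, and -0.08 with the set term) and GCN1 in L363-CFZr DMSO from 6 h to 24 h (0.18, and from -0.30 without DMSO replicate 2 at 24 h to 0.38 without replicate 3). The cause was not tested. Samples with the same replicate number did not deviate together in any comparison, so the numbers are not a pairing. With the replicate block 28, 11, 39, 6, 5, 5 and 10 values passed in the order above, with 8 calls lost and 1 gained. DESeq2's size factors, its Wald test and no filter on low counts turned no direction. At these depths IMPACT was counted at about 9.05 CPM in the lowest library, which limits small differences in it.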
